A study of Mus musculus with 97 samples.

Results

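Celecoxib is a non-steroidal anti-inflammatory drug that inhibits cyclooxygenase-2, the product of Ptgs2, more strongly than cyclooxygenase-1, the product of Ptgs1. The comparison described here set the jejuna of 8 female mice fed celecoxib in the chow against the jejuna of 8 females on normal chow, across all expressed genes. These 16 libraries were chosen by their labelled tissue, experiment and treatment, out of 97 libraries in the series. The series holds 59 heart and 38 jejunum libraries of C57BL/6 mice given naproxen, celecoxib, tryptophan or combinations of them.

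Control mice ate normal chow and celecoxib mice ate chow with 550 ppm celecoxib, in both cases for 3 weeks after 2 weeks of acclimatization. All were C57BL/6 females, received a daily injection of PBS into the abdominal cavity in the last week, and were 11 weeks old at the end. Another group of 7 females ate 1323 ppm naproxen, an inhibitor of both cyclooxygenases, and received the same PBS injections. It is used here for a direct contrast between drugs and for some values beside control. Each library came from the flushed jejunum of 1 animal. The mice were dissected in 4 batches, and each batch held 2 celecoxib and 2 control animals. RNA was depleted of ribosomal RNA because RIN scores, a measure of RNA integrity, were below 8.

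Cyclooxygenases turn arachidonic acid, which phospholipases A2 release from membranes, into prostaglandin H2. Terminal synthases convert prostaglandin H2 into prostaglandins, prostacyclin and thromboxane, which act on G protein-coupled receptors. In the small intestine prostaglandin E2 is known for supporting mucus and bicarbonate secretion, blood flow and epithelial repair. Inhibitors of cyclooxygenase act on the enzymes themselves, and the RNA levels described below are a separate readout from enzyme activity. The jejunal wall holds a villus epithelium of absorptive enterocytes, crypts with stem and Paneth cells, goblet, tuft and enteroendocrine cells, a lamina propria rich in immune cells, and a muscle coat. In whole tissue, fewer cells of a type and less RNA per cell cannot be told apart.

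The labelled tissue carried its markers. Summed over 9 enterocyte genes, among them Fabp1, Sis and Lct, levels ran from 15200 to 42030 CPM (counts per 1000000 of the scaled library) in control and from 19080 to 36250 CPM in celecoxib. Markers of pancreas and stomach summed to at most 0.1935 CPM in any of the 16 libraries. Colon markers (Car1, Slc26a3 and Aqp8) summed to 67.8 to 151.8 CPM in control and 75.53 to 147.9 CPM in celecoxib. Most of that was Slc26a3, with medians of 101.1 and 116.3 CPM. A pair of libraries, control 1 and celecoxib 3, stood apart by the ileal genes Fabp6, Slc10a2 and Fgf15, which summed to 2773 and 3091 CPM there. The other 7 control libraries lay between 4.079 and 28.34 CPM and the other 7 celecoxib libraries between 4.84 and 148.3 CPM, with group medians of 12.38 and 82.35 CPM. A different pair, control 5 and celecoxib 1, carried a sum of B-cell genes, among them Ms4a1, Cr2 and Cd79a, at 96.0 and 37.89 CPM, against at most 12.38 CPM in the remaining 14. Fat markers ran from 0.3247 to 41.34 CPM in control and from 13.83 to 86.05 CPM in celecoxib. Library totals were 10.11 to 26.92 × 1000000 estimated counts, and an exact permutation test (two-sided, 8 against 8) gave adjusted p of 0.805 to 0.838 for total, mitochondrial share, top-gene share, TMM factor and genes detected.

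**Figure D1:**
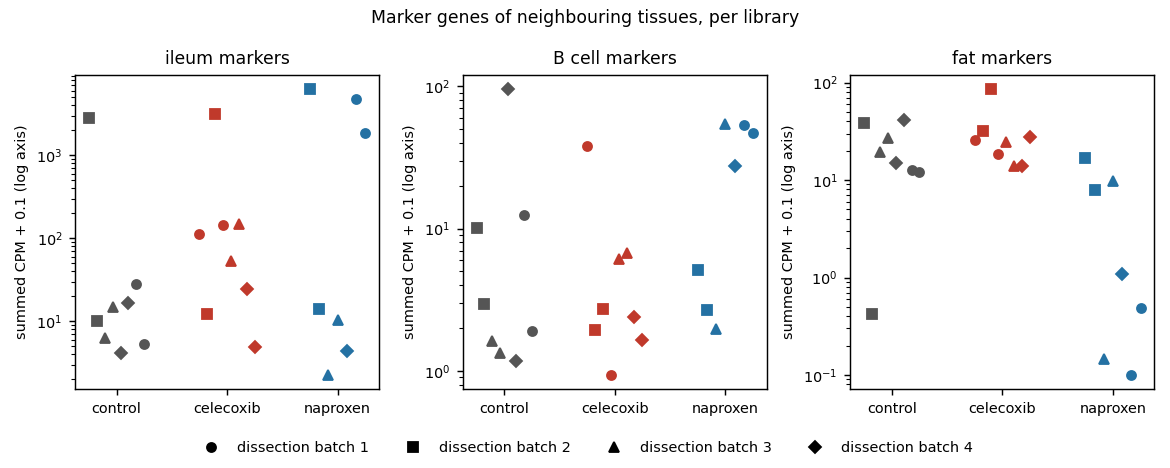
Summed CPM of the ileal, B-cell and fat marker genes (log axes, 0.1 added) in each control, celecoxib and naproxen jejunum, with the symbol giving the dissection batch. Control 1 and celecoxib 3 sit at 2773 and 3091 CPM of ileal markers, and control 5 and celecoxib 1 lead the B-cell markers of their groups at 96.0 and 37.89 CPM.

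No jejunal gene passed the test between celecoxib and control. edgeR's quasi-likelihood test called 0 of 17185 genes at an adjusted p of 0.05 (0.00% called), with a lowest adjusted p of 0.957. At an unadjusted p under 0.05 it listed 751 genes, 346 higher (2.01%) and 405 lower (2.36%) under celecoxib. That is 4.37% of the genes tested, below the 5% that evenly spread p-values would give. Other fits listed more: 1303 of 16132 genes when only the 16 libraries were fitted and 1239 of 17185 with 1 surrogate variable, in both cases above 5%. With RLE in place of TMM scaling the listed genes were 264 higher and 466 lower, and the median of all genes moved by only -0.01 on the log2 scale. DESeq2 and limma voom on the same genes also called 0, with 817 and 760 genes at an unadjusted p under 0.05. Without the filter on low counts edgeR called 319 genes, DESeq2 27 and voom 0. In that edgeR fit the quasi-dispersion of Cyp1a1, a measure of its spread, was 0.595, against 8.35 with the filter. The first principal component of the 16 libraries carried 20.2% of the variance among the 2000 most variable genes. Treatment accounted for 1.54% of that component and dissection batch for 28.8%. On the second component, with 10.5% of the variance, treatment accounted for 19.9% and dissection batch for 41.4%. Dissection batch has 4 levels and so more room to account for variance than treatment, and these shares were not adjusted for that.

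**Figure D2:**
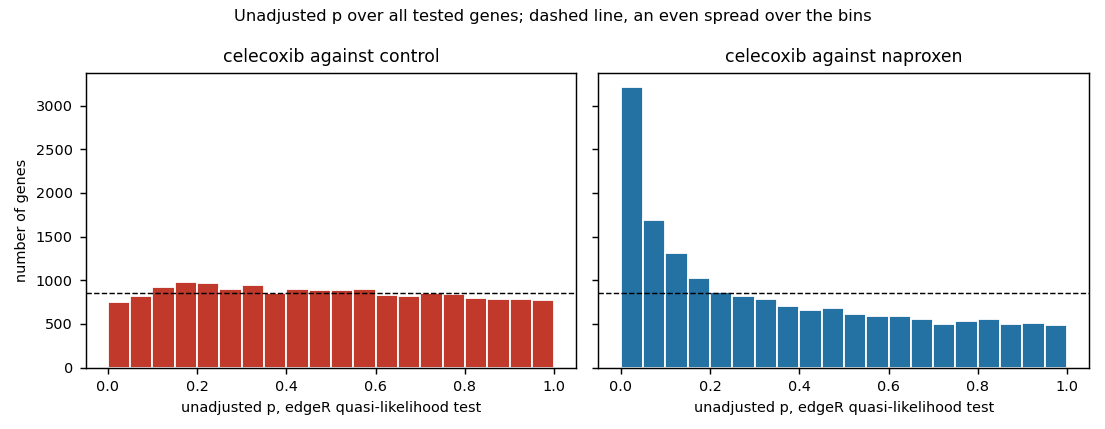
Number of genes (vertical axis) in each 0.05-wide bin of unadjusted p (horizontal axis) for celecoxib against control, left, and celecoxib against naproxen, right; the dashed line is an even spread of the genes over the bins. The first bin holds 751 genes on the left, under the dashed line, and 3211 on the right, far above it.

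The intervals around each gene come from the fit of all 38 jejunum libraries. They show how large a difference between celecoxib and control that fit could have missed. Where the mean level was 10 CPM or more (9519 genes), the 95% interval of the fold change left out 2-fold changes in either direction for 97% and 1.5-fold changes for 83.6%. Over 17184 tested genes with a standard error the same shares were 85.7% and 60.9%. The median standard error was 0.169 on the log2 scale, and the median size of the log2 fold change was 0.116. Smaller shifts, and larger ones in scarce or variable transcripts, were not detectable in this fit at this depth and number of animals. The choice of fit also matters, since edgeR on only the 16 libraries called 1 gene, at an adjusted p of 0.0141.

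The genes of the drug's targets did not differ beyond the spread between animals. Ptgs1 (ENSMUSG00000047250, chromosome 2, 36230426 to 36252272; GRCm38), the constitutive cyclooxygenase, had a lowest, median and highest level of 50.2, 69.0 and 150.3 CPM in the 8 controls and 38.1, 59.95 and 115 CPM in the 8 celecoxib jejuna. The groups overlapped almost fully, and the log2 fold change was -0.21 (95% interval -0.71 to 0.29, edgeR adjusted p = 0.960). Ptgs2 (ENSMUSG00000032487, chromosome 1, 150100031 to 150108227), the inducible cyclooxygenase and main target of celecoxib, stood at 4.82, 8.76 and 23.1 CPM in control and 3.86, 9.44 and 21.7 CPM in celecoxib. Its log2 fold change was -0.09 (-0.87 to 0.69, edgeR adjusted p = 0.980), an interval that takes in shifts of over 1.5-fold either way. The within-batch differences of Ptgs2 on the log2 scale were 0.81, -0.03, -1.16 and 0.22 in batches 1 to 4, so their sign changed between batches, and the fitted sign itself changed without the batch term. Per kilobase of exon, Ptgs1 was the more abundant gene, at 19.9 CPM per kb in control against 2.26 for Ptgs2. Control 1, the library with ileal markers, held the highest level of both genes in its group, and without it and celecoxib 3 the differences were -0.12 for Ptgs1 and -0.05 for Ptgs2 on the log2 scale. Without the 2 libraries rich in B-cell markers both stood at -0.39, again not called.

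No enzyme around the cyclooxygenases passed the test either. Of 14 genes for cyclooxygenases, terminal prostanoid synthases and prostaglandin-degrading enzymes, 13 were tested and 0 called. All 13 fitted fold changes lay below 0, with a median log2 of -0.17 and a range of -0.36 to -0.03, where 50.9% of all tested genes lay below 0 and their median was -0.003. None of the 13 reached an unadjusted p under 0.05. All 13 were also below 0 without the 2 libraries carrying ileal markers and without the 2 carrying B-cell markers. RLE scaling moved fold changes by a median of -0.0134, so the 13 below 0 with it are no separate check. The interval of every one of the 13 left out a 2-fold change, and those of 5 left out 1.5-fold. Ptges, the inducible prostaglandin E synthase, had 6.72, 14.5 and 39.7 CPM in control and 6.64, 14.98 and 24.4 CPM in celecoxib. Ptges2 and Ptges3, the other prostaglandin E synthases, differed by -0.13 and -0.03 on the log2 scale. Hpgd, which oxidises and inactivates prostaglandin E2, was among the most abundant of the list, at 103 CPM per kb in control and 92.2 in celecoxib. Cbr1, a carbonyl reductase that also acts on prostaglandin E2, had the lowest log2 fold change of the list, -0.36 (-0.88 to 0.16), with negative differences in all 4 batches (-0.22, -0.45, -0.33 and -0.27). Hpgds for prostaglandin D2, Ptgis for prostacyclin and Tbxas1 for thromboxane stood below 8 CPM on average in both groups, with log2 fold changes of -0.17, -0.20 and -0.28. Ptgds, the remaining member, was read at no more than 3 counts in any library and was not tested.

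The prostanoid receptors and transporters gave a mixed picture, with 4 of 11 above 0 and 7 below, 0 called, and a median log2 of -0.10. Ptger4, the prostaglandin E2 receptor EP4, was the most abundant receptor at 5.10 CPM per kb in control. Its levels were 30.4, 32.9 and 40.3 CPM in control and 29.1, 30.5 and 32.7 CPM in celecoxib, a log2 difference of -0.13 (-0.33 to 0.06). Ptger1, the EP1 receptor, had the lowest log2 fold change, -0.45 (-0.99 to 0.09), negative in all 4 batches. Ptger2 and Ptger3, for EP2 and EP3, differed by -0.11 and 0.13. Slco2a1, the prostaglandin uptake transporter, had 82.6, 91.5 and 123 CPM in control and 60.6, 81.3 and 105 CPM in celecoxib, and Abcc4, which exports prostanoids, a log2 difference of -0.10. Without the 2 libraries carrying ileal markers the split of this list turned to 6 above and 5 below 0.

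Arachidonic acid can also enter the lipoxygenase pathway, which makes leukotrienes and hydroxy fatty acids. Of 14 lipoxygenase and leukotriene genes, 12 were tested, 2 lay above 0 and 10 below, and 0 were called; the median log2 was -0.27. Alox15, the 12/15-lipoxygenase of eosinophils and macrophages, had the lowest log2 fold change, -0.71 (-1.55 to 0.14), at mean levels of 1.01 and 0.603 CPM. Alox5 and its partner Alox5ap, which start leukotriene synthesis, differed by -0.24 and -0.29. Lta4h, the leukotriene A4 hydrolase, was read far higher, at 94.8, 156 and 207 CPM in control and 121, 168 and 214 CPM in celecoxib, with a difference of 0.11 (-0.16 to 0.39). Of 12 phospholipases A2, 5 lay above 0 and 7 below, 0 were called, and the median was -0.09. Pla2g4a, the cytosolic enzyme that supplies arachidonic acid, differed by -0.14 (-0.70 to 0.43).

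**Figure D3:**
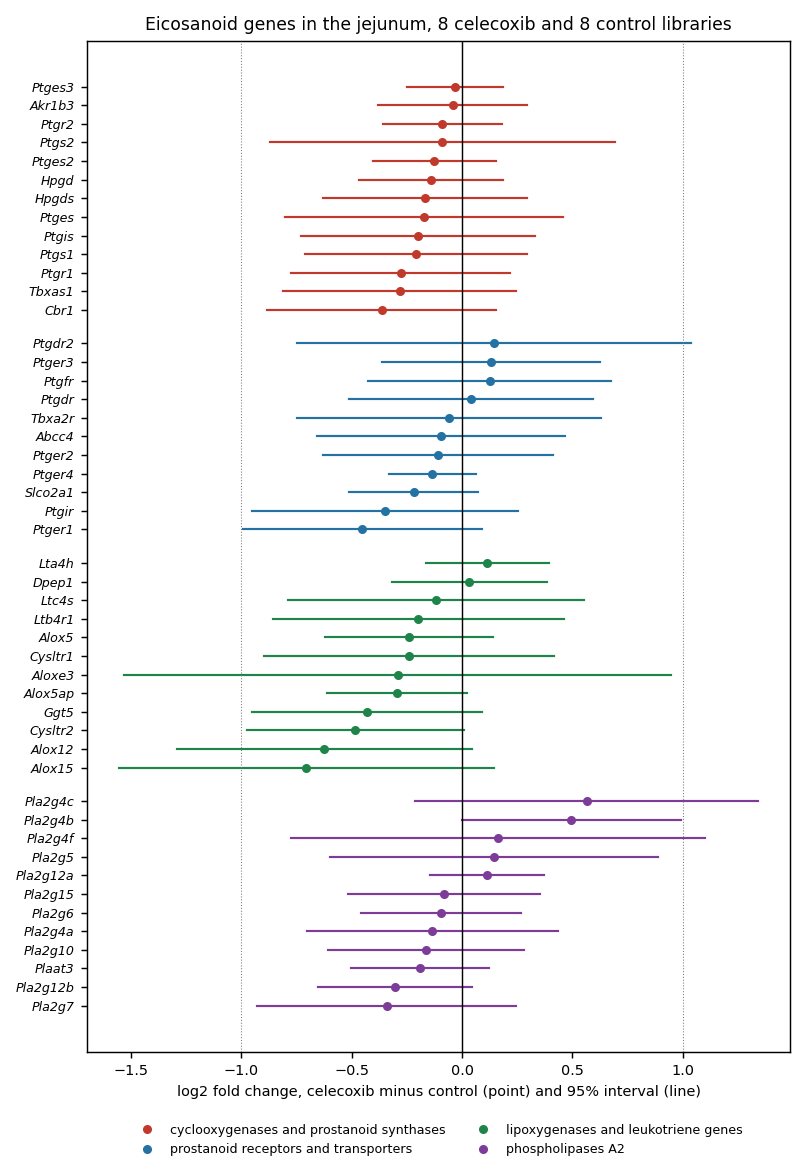
Fitted log2 fold change, celecoxib minus control (points), with its 95% interval (lines) for the tested genes of 4 eicosanoid lists; dotted lines mark 2-fold. All 48 intervals include 0, and the 13 synthase-list points lie between -0.36 and -0.03.

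Since no gene was called, the 10 genes with the smallest p were taken, among those averaging 1 CPM or more in either group and having the same sign in all 4 dissection batches. None of them is called, and each has an edgeR adjusted p of 0.957. Of the 17185 tested genes, 2584 had the same sign in all 4 batches. The shared sign of the 10 between batches was thus a condition of their choice and not a result. A choice by small p also favours genes whose groups lie apart. Positions of their celecoxib libraries against the control median, given below, are therefore descriptive, and their share over all genes was not counted. Of them, 6 were higher and 4 lower on celecoxib.

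The largest fold change among the 10 was that of Cyp1a1 (ENSMUSG00000032315, chromosome 9, 57687928 to 57703824), a cytochrome P450 induced through the aryl hydrocarbon receptor. Its lowest, median and highest levels were 4.21, 11.5 and 28.3 CPM in control and 1.60, 2.67 and 7.88 CPM in celecoxib. Every celecoxib library lay below the control median, and the groups overlapped only through celecoxib 4, the highest of its group. The log2 fold change was -2.29 (95% interval -3.58 to -1.01, edgeR adjusted p = 0.957), and the within-batch differences were -1.12, -2.80, -1.62 and -2.58. With ileal markers as a covariate the log2 fold change was -1.63, and it ranged from -2.45 to -1.85 with 1 library left out, the value nearest 0 being that without control 2. S100g (ENSMUSG00000040808, chromosome X, 162961992 to 162964599), which encodes the vitamin D-dependent calcium-binding protein calbindin-D9k, had 1.19, 4.03 and 10.2 CPM in control and 1.03, 1.39 and 2.26 CPM in celecoxib. All 8 celecoxib libraries stood under the control median, with a log2 fold change of -1.54 (-2.50 to -0.58, edgeR adjusted p = 0.957). The control levels of S100g spread widely, while the celecoxib libraries stayed within 1.03 to 2.26 CPM.

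Gabarapl2 (ENSMUSG00000031950, chromosome 8, 111940703 to 111953612), a member of the ATG8 family that works in autophagosome formation, was read at 95.4, 126 and 141 CPM in control and 68.4, 85.8 and 119 CPM in celecoxib, a log2 difference of -0.45 (-0.71 to -0.19). Its 4 batch values were -0.29, -0.37, -0.66 and -0.48. Med11 (ENSMUSG00000018923, chromosome 11, 70451919 to 70453727), a subunit of the Mediator complex, stood at 15.2, 18.3 and 21.3 CPM in control and 10.1, 13.5 and 18.8 CPM in celecoxib, with a difference of -0.39 (-0.64 to -0.15). For both genes the ranges of the groups overlapped.

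Ptk6 (ENSMUSG00000038751, chromosome 2, 181193721 to 181202789), a cytoplasmic tyrosine kinase of differentiating gut epithelium, was higher on celecoxib, with batch values of 0.62, 0.78, 0.73 and 1.13. Its levels were 10.9, 16.7 and 25.6 CPM in control and 19.9, 26.4 and 63.7 CPM in celecoxib, and all 8 celecoxib libraries were above the control median. The log2 fold change was 0.85 (0.32 to 1.39, edgeR adjusted p = 0.957). Ptk6 was the 1 gene that edgeR called when only the 16 celecoxib and control libraries were fitted (log2 0.81, adjusted p = 0.0141, of 16132 genes). Card14 (ENSMUSG00000013483, chromosome 11, 119307768 to 119345375), a scaffold protein of epithelial NF-kB signalling, had the smallest p of the 10. It stood at 6.66, 7.96 and 11.4 CPM in control and 8.77, 11.4 and 23.2 CPM in celecoxib, a log2 difference of 0.61 (0.28 to 0.93). Celecoxib 8 held the top value of both Ptk6 and Card14.

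The remaining 4 of the 10 were all higher on celecoxib. Clpb (ENSMUSG00000001829, chromosome 7, 101663633 to 101795506), a mitochondrial protein disaggregase, ranged over 15.7 to 18.6 CPM in control and 20.1 to 22.1 CPM in celecoxib, so the groups did not overlap. Its log2 fold change was nevertheless small, at 0.22 (0.09 to 0.35). Gtf2ird1 (ENSMUSG00000023079, chromosome 5, 134357656 to 134456716), a transcription factor of the region deleted in Williams-Beuren syndrome, ran from 25 to 34.2 CPM in control and from 34.4 to 40.4 CPM in celecoxib, also without overlap, at a difference of 0.28 (0.13 to 0.44). Tmem170b (ENSMUSG00000087370, chromosome 13, 41605907 to 41641355), a transmembrane protein, differed by 0.24 (0.10 to 0.38), with batch values of 0.18, 0.14, 0.26 and 0.40. Cntd1 (ENSMUSG00000078653, chromosome 11, 101279012 to 101296317), a cyclin-related protein known from meiotic crossing over, was near the 1 CPM limit, with 0.381, 0.616 and 0.974 CPM in control and 0.821, 1.15 and 1.54 CPM in celecoxib and a difference of 0.77 (0.30 to 1.23).

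**Figure D4:**
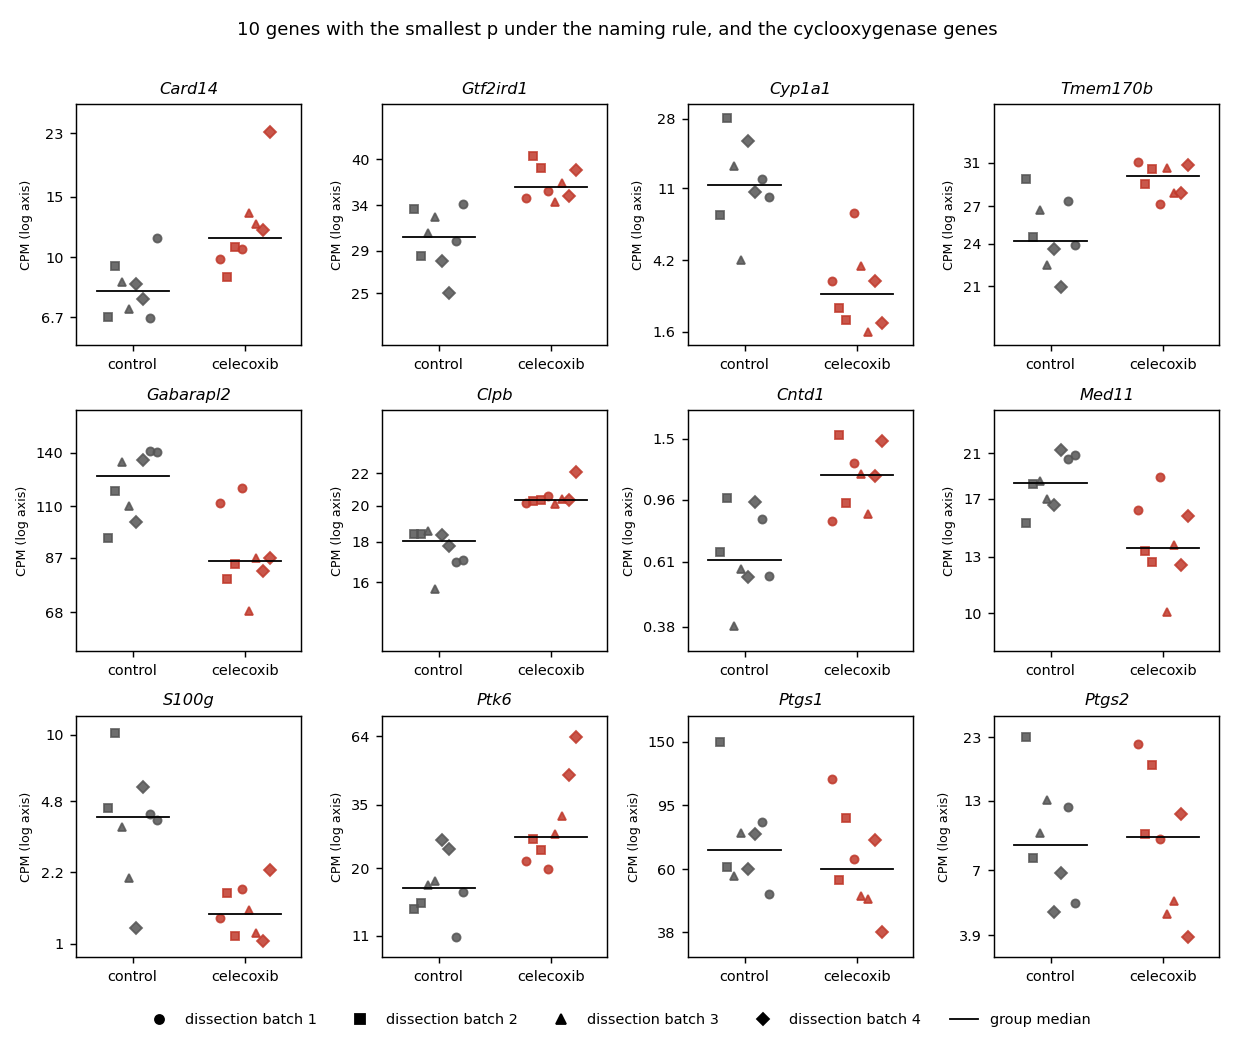
CPM (log axes) of the 10 genes with the smallest p and of Ptgs1 and Ptgs2 in each of the 8 control and 8 celecoxib jejuna; symbols give the dissection batch and lines the group medians. The groups separate fully for Gtf2ird1 and Clpb, Cyp1a1 medians are 11.5 and 2.67 CPM, and Ptgs1 and Ptgs2 overlap.

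Across all genes, the 8 celecoxib and 8 control ranges did not overlap for 9 genes, 0.0524% of those tested, with 8 higher (0.0466%) and 1 lower (0.00582%) on celecoxib. Besides Clpb and Gtf2ird1, the higher ones were Prdm15, a zinc-finger transcription factor, Slc1a1, a glutamate and aspartate transporter of the brush border, Fubp1, a regulator of Myc transcription, Pcm1, a centriolar satellite protein, Foxa1, a transcription factor of gut secretory cells, and Gm47738, annotated as an antisense RNA. These names were chosen after their values were seen. Slc1a1 had the largest difference of them, with 35.5, 44.6 and 51.6 CPM in control, 51.7, 63.5 and 90.2 CPM in celecoxib and a log2 fold change of 0.56 (0.09 to 1.02). Foxa1 stood at 3.90 to 6.61 CPM in control and 6.69 to 8.34 CPM in celecoxib. Differences of the other 6 higher genes lay between 0.19 for Pcm1 and 0.34 for Gm47738. The 1 gene entirely lower on celecoxib was Klrd1, the CD94 receptor of natural killer and intraepithelial T cells.

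Cyp1a1 belongs to a list of 12 known targets of the aryl hydrocarbon receptor, a sensor of dietary and microbial ligands that binds DNA at a core written GCGTG. The stretches of 250 bases before the start sites of 3 listed genes are shown because they let the core be seen beside the levels of these genes. They come from RefSeq (GRCm38.p6), run 5′ to 3′ on the gene's strand, and carry each GCGTG, or its complement CACGC, in capitals.
Cyp1a1 (chr9:57697363-57697612, plus strand): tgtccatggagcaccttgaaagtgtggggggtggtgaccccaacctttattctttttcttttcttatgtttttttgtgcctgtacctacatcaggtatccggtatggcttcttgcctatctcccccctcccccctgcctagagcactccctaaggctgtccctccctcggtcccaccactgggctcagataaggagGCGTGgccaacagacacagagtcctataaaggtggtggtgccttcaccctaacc
Cyp1b1 (chr17:79715062-79715311, minus strand): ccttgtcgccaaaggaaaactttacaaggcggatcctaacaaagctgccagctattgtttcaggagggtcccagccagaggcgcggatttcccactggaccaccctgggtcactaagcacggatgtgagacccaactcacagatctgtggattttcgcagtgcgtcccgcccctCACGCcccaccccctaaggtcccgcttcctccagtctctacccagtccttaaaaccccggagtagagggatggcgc
Ahrr (chr13:74292332-74292581, minus strand): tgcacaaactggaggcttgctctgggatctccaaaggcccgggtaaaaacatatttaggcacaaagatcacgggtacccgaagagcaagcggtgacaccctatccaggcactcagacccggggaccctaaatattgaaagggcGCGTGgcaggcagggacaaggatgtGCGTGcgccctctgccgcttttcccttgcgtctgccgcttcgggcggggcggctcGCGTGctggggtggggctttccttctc
The core begins 54 bases before the RefSeq start of Cyp1a1. It begins 76 bases before that of Cyp1b1, where it reads on the opposite strand. For Ahrr it begins 107, 82 and 27 bases before the RefSeq start. The Cyp1a1 start used here lies inside the gene span given above, which comes from another annotation (GENCODE) and begins further upstream. Among all 32851 promoters of the same length, 28.2% hold it on either strand, and of the 9 listed genes found there, 5 do. A match describes the letters and says nothing on binding.

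Of the 12 listed targets 10 were tested, with 1 above 0 and 9 below, 0 called, and a median log2 of -0.27. Cyp1a1 alone reached an unadjusted p under 0.05. Cyp1b1, another cytochrome P450, had 9.47, 17.9 and 30.2 CPM in control and 8.32, 13.7 and 25.4 CPM in celecoxib, and its within-batch differences changed sign (0.37, -0.47, -0.99 and -0.68). Ahrr, the repressor of the receptor, stood at 6.28, 13.3 and 37.3 CPM in control and 5.86, 11.9 and 24.1 CPM in celecoxib, with a log2 difference of -0.30 (-0.95 to 0.36). Tiparp, a mono-ADP-ribosyltransferase that limits the receptor, differed by -0.14 (-0.37 to 0.09), Nqo1, a quinone reductase, by -0.25, and the receptor gene Ahr itself by -0.13 (-0.36 to 0.10). The intervals of Tiparp and Ahr leave out a 1.5-fold change, so a shift of the size seen in Cyp1a1 was not shared by these 2 genes.

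The other lists of genes are described by the number of members on either side of 0 and by their median, beside the 49.1% of all tested genes above 0. No list had a called member. Members given as examples fall outside the naming rule and were chosen after their values were seen.

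**Figure D5:**
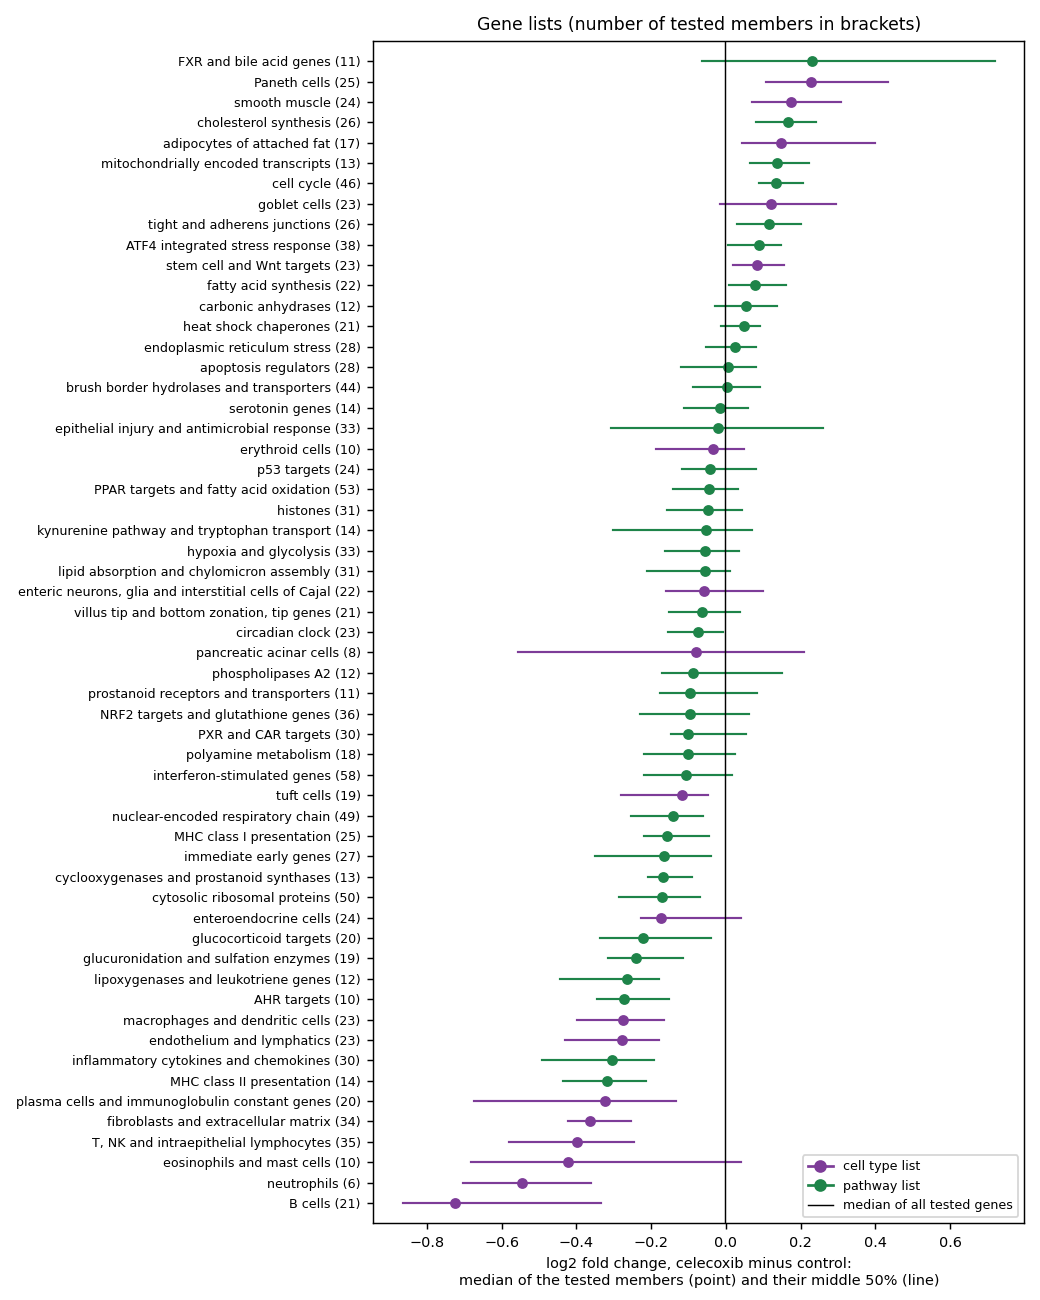
Median log2 fold change, celecoxib minus control, of the tested members (points) and their middle 50% (lines) for 57 gene lists, with the number of tested members in brackets; the black line is the median of all tested genes. B cells have the lowest median, -0.72, and genes of bile acids and their receptor FXR the highest, 0.23. Of the 11 tested genes of that list, 7 lay above 0. None of the 11 had an unadjusted p under 0.05. Their summed level had medians of 872.4 CPM in control and 1032 CPM in celecoxib, with single libraries up to 3428 and 3935 CPM. The ileal markers Fabp6, Slc10a2 and Fgf15 had medians of 12.38 and 82.35 CPM, with single libraries up to 2773 and 3091 CPM. Without those 2 libraries 8 of the 11 lay above 0 (median 0.22). The part of ileal content in this list was not tested.

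Cell cycle, stem cell, Paneth and goblet genes lay mostly above 0, and tuft and enteroendocrine genes mostly below. Of 46 cell cycle genes 40 were above 0, with a median log2 of 0.13 and 3 at an unadjusted p under 0.05, all higher. Mki67, the proliferation marker, was 141 ± 19.3 CPM (mean ± SD, n = 8) in control and 183 ± 33.9 CPM (n = 8) in celecoxib, a log2 difference of 0.38 (0.06 to 0.70). Of 23 stem cell and Wnt target genes 18 were above 0, with a median of 0.08. Axin2, a feedback inhibitor of Wnt signalling, stood at 28.5, 31.3 and 42.7 CPM in control and 34.2, 43.3 and 47.5 CPM in celecoxib (log2 0.39, 0.16 to 0.63), with batch values of -0.01, 0.57, 0.44 and 0.54. Lrig1, which marks stem and progenitor cells, differed by 0.21 (0.05 to 0.37), while the stem cell genes Lgr5 and Olfm4 stood at 0.02 (-0.55 to 0.58) and -0.21 (-0.74 to 0.32). Of 25 Paneth cell genes 23 were above 0 with a median of 0.23. Their spread was wide, with Lyz1, the Paneth lysozyme, at 2763, 6159.6 and 8929 CPM in control and 4595, 7891 and 9898 CPM in celecoxib, and none of the 25 intervals left out a 1.5-fold change. The Paneth markers Mmp7 and Defa24 had medians of 146.4 and 4525 CPM in control and lower ones, 123.7 and 4234 CPM, in celecoxib. Leaving out the 2 libraries carrying ileal markers put 19 of the 25 above 0. Goblet cell genes had 16 of 23 above 0 and a median of 0.12. Without the 2 libraries carrying ileal markers 14 were above 0 (median 0.06), and without those carrying B-cell markers as well 12 (median 0.07). Muc2, the main secreted mucin, ranged over 1859 to 3331 CPM in control and 2649.9 to 3363 CPM in celecoxib, with all 8 celecoxib libraries above the control median. Other goblet markers had lower medians on celecoxib. Fcgbp, Tff3 and Zg16 stood at 8054, 1664 and 2876 CPM in control and 8000, 1462 and 2771 CPM in celecoxib. In tuft cells 16 of 19 genes lay below 0 (median -0.12). Without the 2 libraries carrying B-cell markers 12 lay below 0 (median -0.08), and without both pairs also 12 (median -0.12). The tuft markers Dclk1 and Pou2f3 had medians of 13.71 and 0.5301 CPM in control and higher ones, 15.12 and 0.5768 CPM, in celecoxib. The marker Trpm5 had a lower median on celecoxib, 9.003 CPM against 9.584 CPM. Rgs13, described next, is a member of the list. The lowest p of the tuft list was that of Rgs13, a regulator of G protein signalling. It had 5.93, 9.12 and 11.5 CPM in control and 3.21, 5.24 and 10.1 CPM in celecoxib (log2 -0.61). Of 24 enteroendocrine genes 16 lay below 0 (median -0.17), and Pax6, a transcription factor of these cells, was the 1 member at an unadjusted p under 0.05 (log2 0.76, 0.19 to 1.33). Dclk1, the usual tuft cell marker, stood at -0.03 (-0.27 to 0.20).

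Among absorptive functions, the sides of 0 depended on the libraries kept. Of 44 brush border hydrolases and transporters 24 were above and 20 below 0, with a median of 0.003 on the log2 scale. These numbers were 18 and 26 with RLE scaling, 17 and 27 without the 2 libraries carrying ileal markers (median -0.06), and 28 and 16 without the 2 carrying B-cell markers. Sis, the sucrase-isomaltase, ran at 1903, 4044 and 5783 CPM in control and 2453, 4202 and 5912 CPM in celecoxib, and Lct, the lactase, differed by -0.08 (-0.94 to 0.79). Of 31 lipid absorption and chylomicron genes 10 were above 0, with a median of -0.06. With RLE scaling 7 were above 0, without the 2 libraries carrying ileal markers 5 (median -0.13), and without the 2 carrying B-cell markers 14 (median -0.01). All 26 cholesterol synthesis genes lay above 0, with a median of 0.17 and a range of 0.01 to 0.30, but none reached an unadjusted p under 0.05. With RLE scaling 25 of the 26 were above 0, and 22 without the 2 libraries carrying ileal markers. Sqle, the squalene epoxidase of that pathway, had 21.1, 29.2 and 44.7 CPM in control and 27.4, 34.5 and 52.98 CPM in celecoxib, a log2 difference of 0.29 (-0.30 to 0.87). Targets of PPAR and fatty acid oxidation genes split into 23 above and 30 below 0, and into 13 and 40 without the 2 libraries carrying ileal markers. Cpt1a, the carnitine acyltransferase of mitochondrial fat uptake, was the 1 member of that list at an unadjusted p under 0.05 (log2 0.23, 0.01 to 0.46).

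Celecoxib is a sulfonamide that also binds carbonic anhydrases, and it is cleared by oxidation and conjugation. Of 12 tested carbonic anhydrases 8 were above 0 and 4 below. Car4 and Car13, the membrane-bound and cytosolic enzymes abundant here, had medians of 68.4 and 99.8 CPM in control, and differed by -0.10 (-0.43 to 0.23) and 0.07 (-0.34 to 0.48). Car14 was the 1 member at an unadjusted p under 0.05, with 0.487, 0.915 and 1.57 CPM in control and 0.783, 1.65 and 3.58 CPM in celecoxib (log2 0.82). Targets of the xenobiotic receptors PXR and CAR had 11 of 30 above 0 and a median of -0.10. Cyp3a11, the main intestinal cytochrome P450 of that list, ran at 469, 1032 and 1927 CPM in control and 437, 1053 and 1483 CPM in celecoxib, with a wide interval of -1.41 to 0.47. Abcb1a, the P-glycoprotein efflux pump, differed by 0.24 (-0.22 to 0.69). Of 19 glucuronidation and sulfation enzymes 17 lay below 0, with a median of -0.24 and none at an unadjusted p under 0.05.

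Stress programmes are known to be set off by celecoxib in cultured cells. Of 28 endoplasmic reticulum stress genes 17 were above and 11 below 0, the median was 0.02, and the intervals of 27 left out a 1.5-fold change. Hspa5, the chaperone BiP, stood at 321, 421 and 478 CPM in control and 372, 423 and 532 CPM in celecoxib. Ddit3, the stress factor CHOP, differed by 0.09 (-0.22 to 0.40) and Atf4, the effector of the integrated stress response, by -0.06 (-0.25 to 0.14). Of 38 genes of the ATF4 integrated stress response 29 lay above 0, with a median of 0.09, none at an unadjusted p under 0.05. Of these, 25 were above 0 without the 2 libraries carrying ileal markers, with a median of 0.05. Of 24 p53 targets 10 were above 0, with a median of -0.04, and all 24 intervals left out a 2-fold change. Among 36 NRF2 targets and glutathione genes 15 were above 0. The glutathione reductase Gsr and the gut glutathione peroxidase Gpx2 were the members at an unadjusted p under 0.05, with differences of 0.35 (0.11 to 0.59) and 0.42 (0.07 to 0.77). In the list of 33 epithelial injury and antimicrobial genes 15 lay above 0 and 18 below, and 3 had an unadjusted p under 0.05, all higher. Duox2, the epithelial NADPH oxidase, ran at 10.7, 18.8 and 30.7 CPM in control and 18.4, 38.9 and 62.4 CPM in celecoxib (log2 1.10, 0.02 to 2.19). Reg3g, a lectin that kills Gram-positive bacteria, had 92.9, 145 and 327 CPM in control and 86.5, 212 and 2081 CPM in celecoxib, a log2 fold change of 1.5 (0.15 to 2.84) with the highest celecoxib library far above its own group's median. Its within-batch differences were 0.08, 1.87, 1.96 and 0.08. Reg3b, a lectin of the same family, had a difference of 1.27 (-0.14 to 2.67). The remaining one was Saa1, a serum amyloid A gene read at a median of 0 CPM in control.

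Genes of lymphocytes lay mostly below 0. Of 35 tested genes of T, natural killer and intraepithelial lymphocytes 34 were below 0, with a median log2 of -0.40. Of these, 8 had an unadjusted p under 0.05, all lower, against 2.36% of all tested genes. None of the 8 was called, since every edgeR adjusted p was at least 0.957. Klrd1, named above, ran at 2.28 to 4.26 CPM in control and 0.988 to 2.07 CPM in celecoxib (log2 -0.79, -1.31 to -0.26), with batch values of -0.81, -0.98, -0.63 and -0.59. Gzma, the granzyme A of intraepithelial killer cells, had 32.4, 53.3 and 93.9 CPM in control and 12.8, 24.0 and 40.5 CPM in celecoxib. Its log2 difference was -1.21 (-2.12 to -0.30), and the ranges overlapped between 32.4 and 40.5 CPM. The 3 CD3 chain genes Cd3d, Cd3e and Cd3g, which mark all T cells, stood at -0.69, -0.52 and -0.53, and Cd8a, of cytotoxic T cells, at -0.62 (-1.24 to -0.01). Cd4, of helper T cells and macrophages, differed by -0.30 (-0.95 to 0.34). Most of these transcripts were scarce, with CD3 chain means of 1.96 to 3.90 CPM over both groups. Without the 2 libraries carrying ileal markers 33 of the 35 were below 0 and 4 had an unadjusted p under 0.05. Without the 2 libraries carrying B-cell markers the numbers were 34 and 7. Summed over the list, medians were 204.3 CPM in control, 154.3 CPM in celecoxib and 149.3 CPM in the naproxen jejuna.

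The 21 tested B-cell genes were all below 0, with the lowest median of any list, -0.72, but none had an unadjusted p under 0.05. These values moved with the 2 libraries rich in B-cell markers. Without control 5 and celecoxib 1, 16 of 21 were below 0 and the median was -0.22, and without the 2 libraries carrying ileal markers as well, 11 were below 0 and 10 above. Of 20 plasma cell and immunoglobulin constant genes 16 were below 0 (median -0.32), and 12 without both pairs of libraries standing apart (median -0.13). Ighg1, the constant region of IgG1, had 2.48, 4.26 and 22.1 CPM in control and 1.43, 2.25 and 5.34 CPM in celecoxib (log2 -1.37, -2.38 to -0.36), and counts of such segments depend on how reads were shared between similar copies. Of 23 macrophage and dendritic cell genes 22 lay below 0 (median -0.28), and 21 without the 2 libraries carrying ileal markers (median -0.15). Of 30 inflammatory cytokines and chemokines 26 lay below 0 (median -0.31). Interferon-stimulated genes split into 16 above and 42 below 0, with a median of -0.11, and into 23 and 35 without the 2 libraries carrying ileal markers (median -0.05). Isg15, a ubiquitin-like interferon product, and Oas1a, an oligoadenylate synthase, were its members at an unadjusted p under 0.05. Isg15 ran at 10.7, 19.6 and 28.2 CPM in control and 7.27, 12.1 and 14.98 CPM in celecoxib (log2 -0.69, -1.33 to -0.05), and Oas1a differed by -0.48 (-0.84 to -0.11).

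Among the cells of the wall, fibroblast and matrix genes lay below 0 in 33 of 34 cases (median -0.36). Col1a1, a chain of type I collagen, had 68.2, 172 and 269 CPM in control and 41.0, 91.3 and 216 CPM in celecoxib, with batch values of -0.75, -0.68, -0.64 and -0.93 and an interval of -1.51 to 0.03. None of the 34 had an unadjusted p under 0.05, but 13 did, all lower, without the 2 libraries carrying B-cell markers, when the median was -0.60, and 2 did without these and the 2 carrying ileal markers. Over all tested genes, 405 of 17185 were lower at that level in the main fit. The same count was 647 of 17144 without the B-cell pair and 525 of 17213 without both pairs. Endothelial and lymphatic genes were below 0 in 19 of 23 cases (median -0.28), and in 20 without the 2 libraries carrying B-cell markers (median -0.50). Smooth muscle genes went the other way, with 20 of 24 above 0 and a median of 0.17. The muscle-wall markers Myh11, Actg2 and Des summed to 775.9 to 1834 CPM in control and 918.4 to 2412 CPM in celecoxib, ranges that overlapped. Whether the stromal and immune values moved with the make-up of the pieces taken was not tested.

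Several other lists lay largely on 1 side of 0. Of 49 nuclear-encoded respiratory chain genes 42 lay below 0 (median -0.14), 7 of them at an unadjusted p under 0.05. Ndufb9, a subunit of complex I, stood at 202, 291 and 339.5 CPM in control and 159, 191 and 325 CPM in celecoxib (log2 -0.43, -0.78 to -0.09). Of 50 cytosolic ribosomal protein genes 45 lay below 0 (median -0.17), 4 at an unadjusted p under 0.05, with Rps14 at -0.46 (-0.84 to -0.08). Of the 13 mitochondrially encoded transcripts 11 lay above 0, with a median of 0.14, or 0.25 without the 2 libraries carrying B-cell markers. Among 23 circadian clock genes 17 lay below 0 (median -0.08), and Per1, a period gene, was under the control median in all 8 celecoxib libraries (log2 -0.34, -0.70 to 0.02). Of 27 immediate early genes 23 lay below 0 (median -0.17), and Egr1, a zinc-finger factor induced within minutes of a stimulus, had 6.01, 13.2 and 15.01 CPM in control and 4.02, 7.37 and 12.0 CPM in celecoxib (log2 -0.62, -1.13 to -0.11). Tight and adherens junction genes lay above 0 in 23 of 26 cases (median 0.12), with Tjp3, a junction scaffold, at 0.26 (0.04 to 0.49). Tsc22d3, the glucocorticoid-induced leucine zipper, had the smallest p of 20 glucocorticoid targets, with 116, 127 and 165 CPM in control and 74.1, 106 and 132 CPM in celecoxib (log2 -0.35, -0.60 to -0.09).

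Celecoxib and naproxen jejuna were also compared directly, with no control library in the contrast. The doses differ, at 550 ppm celecoxib and 1323 ppm naproxen, so the values stand side by side and do not rank the drugs. edgeR again called 0 of 17185 genes (0.00%), but its lowest adjusted p was 0.0643, 67 genes (0.390%) were under 0.1, and 3211 genes (18.7%) had an unadjusted p under 0.05, 1322 higher (7.69%) and 1889 lower (11.0%) on celecoxib. DESeq2 called 291 genes and limma voom 1 on the same table. This contrast moved with single libraries, since edgeR called 498 genes without naproxen 6 and 0 to 7 without any other single library. Naproxen 1, 6 and 7 carried ileal markers at 6295, 4811 and 1831 CPM, and leaving out these and celecoxib 3 gave 214 calls. B-cell markers had a median of 27.55 CPM in naproxen against 2.447 CPM in celecoxib, and fat markers 0.9757 against 25.14 CPM. Their part in the contrast was not tested beyond these counts.

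Kars, the lysyl-tRNA synthetase, had the smallest p between the drugs and is named after its value was seen. It stood at 44.8, 59.96 and 72.6 CPM in celecoxib and 26.6, 40.7 and 57.1 CPM in naproxen, a log2 difference of 0.52 (0.33 to 0.71, edgeR adjusted p = 0.0643). Of 25 Paneth cell genes 18 had an unadjusted p under 0.05, all higher on celecoxib, and the median difference was 1.15. Lyz1 was 1709, 3402 and 6101 CPM in the 7 naproxen jejuna (log2 1.12, edgeR adjusted p = 0.143). Cell cycle genes had 26 of 46 members at an unadjusted p under 0.05, all higher on celecoxib, among them Mki67 (log2 0.53, 0.20 to 0.87). Fibroblast and matrix genes had a median of -0.57 with 9 of 34 lower at that level, and Col1a1 stood at 86.2, 210.3 and 689.7 CPM in naproxen (log2 -1.57). Ptgs1 was 48.8, 110.2 and 161 CPM in naproxen, a log2 difference of -0.62 (-1.14 to -0.10, adjusted p = 0.202), and Ptgs2 3.61, 13.0 and 29.2 CPM (-0.42, -1.22 to 0.37). Cyp1a1 had 2.41, 4.42 and 11.8 CPM in naproxen, between the other 2 groups by its median, and S100g 0.521, 3.56 and 14.0 CPM. None of these passed the edgeR threshold between the drugs. Against the same controls, naproxen log2 differences were 0.34 for Gtf2ird1, -0.36 for Gabarapl2, -0.35 for Med11, 0.50 for Cntd1 and 0.57 for Ptk6. They were 0.36 for Card14, 0.09 for Tmem170b, 0.06 for Clpb, -0.98 for Cyp1a1 and 0.10 for S100g. Of these genes, S100g alone had the other sign on celecoxib. Both differences share the control libraries, and the part of these controls was not tested.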

How the data were processed

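RNA of 38 jejuna was read, and the contrast used 8 celecoxib, 8 control and, for the second contrast, 7 naproxen libraries. The authors deposited a table of estimated counts per gene (51368 genes), made with Salmon 1.9.0 on GRCm38 and R 4.2.2, per the submitters' processing notes; 24.4% of the values were not whole and all were rounded. Genes passed filterByExpr with a minimum count of 10, leaving 17185. edgeR 4.0.16 in R 4.3.3 fitted TMM-scaled counts of all 38 libraries (5 groups) with treatment and dissection batch as terms, using the robust quasi-likelihood test, Benjamini-Hochberg adjustment and a call at an adjusted p of 0.05. CPM are per 1000000 of the TMM-scaled total, and intervals are at 95%. The code was tested on simulated data. Alternatives used DESeq2 1.42.0, limma 3.58.1, sva 3.50.0, RLE scaling, other filters and terms, and each library left out. Named genes were the 10 with the smallest p among those averaging 1 CPM or more in either group and having 1 sign in all 4 batches, leaving out predicted genes, pseudogenes and antigen receptor segments, with Ptgs1 and Ptgs2. The comparison, its gene lists and its members were chosen with earlier results of these data known. Library totals of 10.11 to 26.92 × 1000000 counts set the counting precision. Animals are separate in each group. The libraries of other jejunum groups entered the filter, the scaling, the batch terms and the estimate of the spread, and hearts were not used. Single values of some list members are not reported here.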

Additional observations from a re-analysis of the deposited data

Results flagged for a closer look

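Of 56 groups of 8 values examined, 12 held 1 library far from the rest by Dixon's test at the 95% level, where chance gives about 5%. Control 1 accounted for 4 of them. Its ileal markers summed to 2773 CPM against 28.34 CPM in the next control, its enterocyte markers to 15200 CPM against 29870 CPM, and it had the highest Ptgs1 (150.3 CPM, next 84.08) and Ptgs2 (23.11 CPM, next 13.11) of its group. Celecoxib 3 stood apart by ileal markers (3091 CPM, next 148.3) and by fat markers (86.05 CPM, next 31.95). B-cell markers set control 5 apart at 96.0 CPM (next 12.38) and celecoxib 1 at 37.89 CPM (next 6.634). Celecoxib 8 was highest for Card14 (23.21 CPM, next 13.45) and for Clpb (22.07 CPM, next 20.62). Celecoxib 4 was highest for Cyp1a1 at 7.881 CPM (next 3.871), which is towards the control levels. Celecoxib 5 had the fewest genes detected, 19940 after rounding, against 20980 in the next library. Whether these libraries share an origin for their values was not tested.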

How the results depend on the processing

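The call of 0 genes between celecoxib and control held with DESeq2, limma voom, RLE scaling, a stricter filter, no dissection batch, 1 surrogate variable and non-robust estimation, and leaving out each of the 16 libraries gave 0 to 0 calls. The fit with the replicate number as a block also called 0 genes, with 730 at an unadjusted p under 0.05, and 0 between celecoxib and naproxen (2926). The numbers share only a name: correlations of same-numbered libraries ran from -0.142 to 0.469, 2 of 8 were over 0.1, and 0 libraries correlated best with their own number. Fitting only the 16 libraries called 1 gene, Ptk6. Without the filter edgeR called 319 genes, when the prior degrees of freedom of all 32343 genes were infinite (median 3.71 with the filter), so that the quasi-dispersion of Cyp1a1 went from 8.35 to 0.595 and that of Ptk6 from 2.54 to 0.592. Cyp1a1, S100g, Ptk6, Card14 and Gabarapl2 were then among the calls. DESeq2 without the filter called 27 genes, 0 of them among the 17185 tested, and voom 0. These 2 runs, and those without libraries rich in ileal or B-cell markers or with ileal markers as a covariate (0 calls each), were chosen after seeing the data. Between celecoxib and naproxen the calls were 291 with DESeq2, 1 with voom, 1784 without the filter, 295 with DESeq2 and 1 with voom without the filter, 214 without libraries rich in ileal markers, 1 without those rich in B-cell markers, and 3 with ileal markers as a covariate. Leaving out 1 library gave 0 to 498 calls there, the 498 without naproxen 6. The cause was not tested. Ptgs2 turned to 0.0115 on the log2 scale without dissection batch and ranged from -0.29 to 0.10 with 1 library left out. With 1 library left out, celecoxib minus control ranged from -12.93 to 337.7 genes detected, from -0.07755 to 0.5359 percentage points of mitochondrial share, and from -0.4568 to 1.913 × 1000000 estimated counts.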
